A study of Homo sapiens with 8 samples.

Results

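The Notch pathway was followed here through 10 genes: the receptor genes NOTCH1, NOTCH2 and NOTCH3, the ligand genes JAG1, JAG2 and DLL1, and the target genes HES1, HEY1, HEY2 and NRARP. They were taken by gene name from a count table of 60708 genes, and each name matched 1 row. RNA was sequenced from HS578T, an established human breast cancer line of mesenchymal character, in 4 groups of 2 libraries. The groups were HSF2oe cells with TGF-β, HSF2oe cells without it (control), Mock cells with TGF-β, and Mock cells without it (control). All cells had received 25 µg of plasmid DNA, encoding the transcription factor HSF2 (HSF2oe) or green fluorescent protein (Mock), and were then kept for 24 h in assay medium alone or with 10 ng/ml TGF-β1. The share of cells that took up a plasmid is not given in the labels, and all libraries come from this single line. Per the design text, the libraries within a group are biological replicates. A treatment field in the labels contradicts the sample titles, and the groups follow the titles and the design text.

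Notch receptors sit in the cell membrane and are activated by ligands of the Jagged and Delta-like families on a neighbouring cell. Ligand binding exposes the receptor to cleavage by ADAM proteases and then by γ-secretase, which frees the intracellular domain. That domain enters the nucleus, joins the DNA-binding protein RBPJ and Mastermind coactivators, and turns on target genes, many of which encode repressors of the HES and HEY families. In breast cancer cells the pathway is studied for its part in epithelial-mesenchymal transition, and JAG1, HES1 and HEY1 are known as genes that TGF-β can induce in several cell types.

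Of the 10 genes, 8 matched a promoter entry in RefSeq (GRCh38.p14). The 250 bases before the RefSeq start are shown for NOTCH3, JAG1, HES1 and HEY2, because these are the genes with an entry that passed the test in a comparison below. They lie at chr19:15200996-15201245 (minus strand), chr20:10674000-10674249 (minus strand), chr3:194135898-194136147 (plus strand) and chr6:125749382-125749631 (plus strand). Each is written 5′ to 3′ on the strand of its gene, and capitals mark matches to a searched motif.
NOTCH3: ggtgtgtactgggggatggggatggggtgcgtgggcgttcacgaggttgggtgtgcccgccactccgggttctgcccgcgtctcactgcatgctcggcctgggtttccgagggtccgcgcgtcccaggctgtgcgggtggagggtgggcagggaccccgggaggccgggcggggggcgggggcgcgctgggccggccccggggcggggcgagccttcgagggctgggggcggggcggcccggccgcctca
JAG1: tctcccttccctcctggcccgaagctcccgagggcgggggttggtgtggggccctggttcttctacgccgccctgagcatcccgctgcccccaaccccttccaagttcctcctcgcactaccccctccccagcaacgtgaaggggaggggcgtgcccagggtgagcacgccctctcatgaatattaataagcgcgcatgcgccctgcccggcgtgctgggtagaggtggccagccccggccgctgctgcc
HES1: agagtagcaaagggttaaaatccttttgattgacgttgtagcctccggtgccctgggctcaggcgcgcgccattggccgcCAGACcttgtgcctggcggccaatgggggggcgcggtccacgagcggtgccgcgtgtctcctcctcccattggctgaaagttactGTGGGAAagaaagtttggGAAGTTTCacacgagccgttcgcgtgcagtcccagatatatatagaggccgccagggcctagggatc
HEY2: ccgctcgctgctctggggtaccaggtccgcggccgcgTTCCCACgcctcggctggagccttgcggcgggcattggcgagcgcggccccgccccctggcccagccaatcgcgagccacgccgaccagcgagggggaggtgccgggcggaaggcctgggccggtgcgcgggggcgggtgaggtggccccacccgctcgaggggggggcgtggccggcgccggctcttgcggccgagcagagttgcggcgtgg

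The motifs, searched on both strands, were GTGGGAA (the core that RBPJ recognises), CAGAC (a SMAD box) and GAANNTTC (a pair of heat shock units). HES1 held 1 match to each of them. Counted back from the start, its RBPJ core covers bases 85 to 79, its heat shock pair bases 67 to 60 and its SMAD box bases 170 to 166, so none of these overlaps another. HEY2 held 1 RBPJ core, at bases 213 to 207. Its window lies inside the counted gene, which begins at 125747664, so its RefSeq start differs from the first base counted. The windows of NOTCH2 and JAG2 also lie wholly or partly inside the counted gene. The windows of NOTCH3 and JAG1, and those of NOTCH1, NOTCH2, JAG2 and NRARP, held no match to any of the 3. Among 35116 RefSeq windows of this length, 5.43% hold GTGGGAA, 38% hold CAGAC and 5.78% hold GAANNTTC, so a match describes the letters only and is not evidence of binding.

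Total counts ran from 17427645 to 34336107 per library, and levels are given as CPM, a gene's counts over the library's total, after TMM scaling, which adjusts the library totals so that most genes stay level. HSF2 itself had 780 and 489 CPM in HSF2oe TGF-β and 937 and 616 CPM in HSF2oe control, against 5.4 and 5.76 CPM in Mock TGF-β and 8.36 and 6.44 CPM in Mock control. The labels call the cells epithelial. Of 7 epithelial markers, EPCAM, KRT19 and KRT5 stayed under 1 CPM in every library and CDH1 reached at most 1.17 CPM, while the keratin genes KRT8, KRT18 and KRT14 were expressed, at 15.6 to 26.1, 177 to 275 and 176 to 538 CPM. The summed CPM of the 7 was 548 and 546 in HSF2oe TGF-β against 386 and 409 in HSF2oe control, and 831 and 709 in Mock TGF-β against 578 and 492 in Mock control, with KRT14 above its controls in all TGF-β libraries. The mesenchymal genes VIM, CDH2, FN1, ZEB1 and COL1A1 were at 54.1 CPM or more in every library, and their summed CPM also moved with the treatment: it was 65900 and 60800 in HSF2oe TGF-β against 40200 and 38800 in HSF2oe control, and 87600 and 95500 in Mock TGF-β against 44000 and 50800 in Mock control. Endothelial cells also use Notch. The 6 endothelial markers summed to 3.62 to 6.45 CPM per library, 4 of the 6 were under 1 CPM in every library, and the defining marker CDH5 was at or below 0.246 CPM. The 5 blood markers summed to 0.591 to 4.05 CPM. The part of these shifts in the Notch results was not tested. In bulk RNA, fewer cells of a kind and less RNA per cell cannot be told apart.

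TGF-β raised a receptor, a ligand and a pair of targets in Mock cells: NOTCH3, JAG1, HES1 and HEY1. In HSF2oe cells JAG1 and HES1 passed the test. Set against Mock, HSF2oe cells had less NOTCH3 with and without TGF-β, and less HEY2 with TGF-β. NOTCH1, NOTCH2, DLL1 and NRARP passed in none of these comparisons, and JAG2 was too low to be tested.

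**Figure D1:**
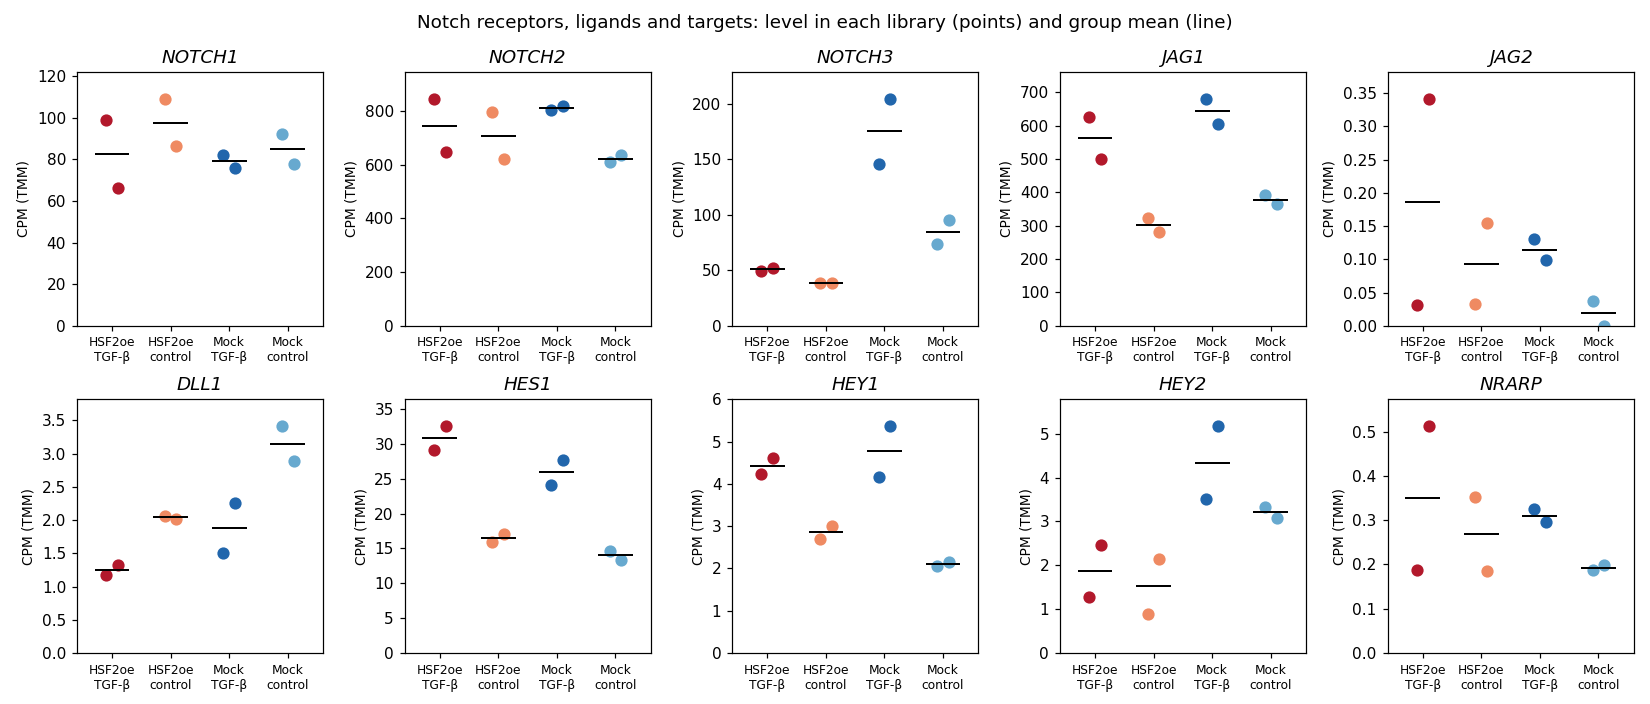
Level of each of the 10 genes, in CPM scaled by TMM on an axis that starts at 0, in HSF2oe TGF-β, HSF2oe control, Mock TGF-β and Mock control cells. Points are the 2 libraries of a group and the line is their mean. HES1 lies at 24.1 to 32.5 CPM in TGF-β libraries and at 13.4 to 17.0 CPM in control libraries, and NOTCH3 lies at 52.3 CPM or less in every HSF2oe library and at 73.8 CPM or more in every Mock library.

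Counts were tested gene by gene across the whole table (edgeR quasi-likelihood test, Benjamini-Hochberg adjustment over 16008 genes, threshold 0.05), and 9 of the 10 members passed the filter on low counts. For TGF-β over control in Mock cells, 4 of the 9 were higher and none was lower, beside 13.8% of all tested genes called in either direction, 7.32% higher and 6.5% lower. In HSF2oe cells the TGF-β comparison called 2 of the 9, both higher, where 8.26% of all genes were called, 4.45% higher and 3.82% lower. HSF2oe over Mock without TGF-β called 1 of the 9, a lower one, where 12.1% of all genes were called, 4.88% higher and 7.22% lower. With TGF-β it called 2 of the 9, both lower, where 21.5% of all genes were called, 9.6% higher and 11.9% lower. In the last 2 comparisons the members' share is near the background and says nothing particular about Notch genes as a set. The members were chosen with earlier results of these data known, so the shares of the 2 TGF-β comparisons are a description only. The median log2 change of the 9 was 0.66, 0.32, 0.18 and -0.12 in these 4 comparisons in turn, beside 0 or -0.01 for all genes tested. In both TGF-β comparisons that median is the value of NRARP, a gene of few counts with standard errors of 0.79 and 0.70 there. Comparisons that share a group are not independent of each other.

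Scaling by library totals alone moved the median of all genes by -0.27 in the TGF-β comparison of Mock cells and by -0.17 in that of HSF2oe cells, and by 0.09 and 0.19 for HSF2oe over Mock without and with TGF-β. With that scaling TGF-β called 608 genes higher and 3885 lower in Mock cells, in place of 1172 and 1040, and 452 higher and 1593 lower in HSF2oe cells, in place of 712 and 611. HSF2oe over Mock called 1432 higher and 807 lower without TGF-β, in place of 781 and 1156, and 3526 higher and 1073 lower with it, in place of 1537 and 1912. The 9 calls of Notch members held under it, in the same direction.

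**Figure D2:**
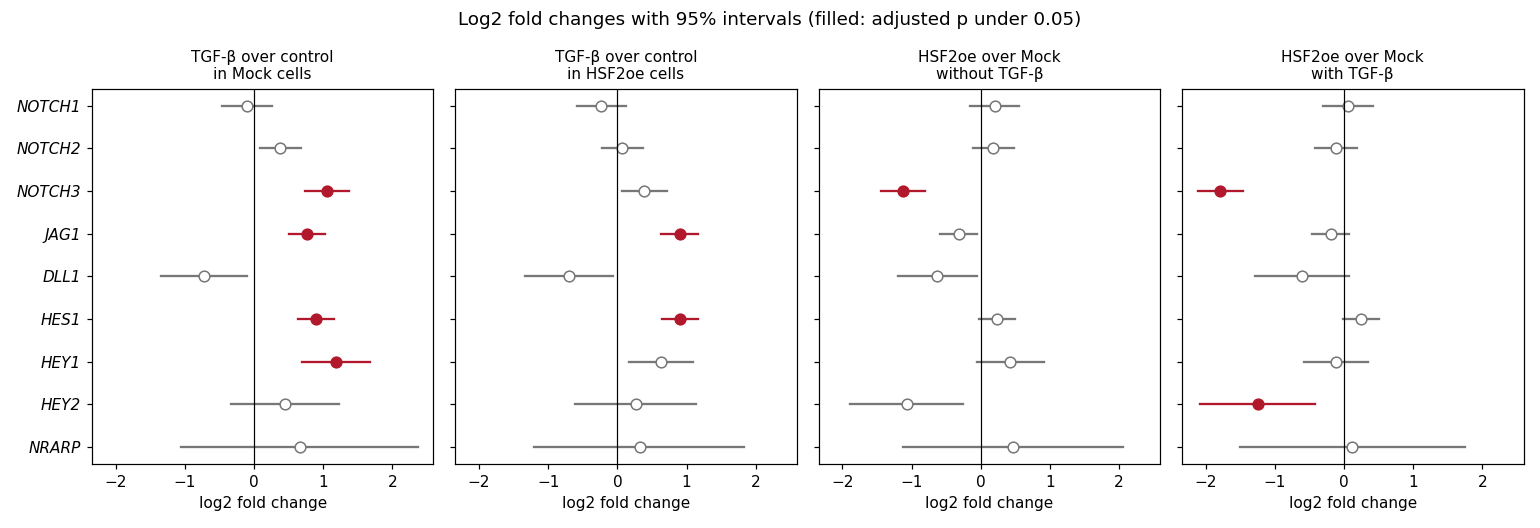
Log2 fold change (x axis) of the 9 tested genes in the 4 comparisons, with 95% intervals from the standard error of the test; filled points had an adjusted p under 0.05. NOTCH3 lies to the right of 0 in Mock cells given TGF-β, at 1.05, and to the left of it in both HSF2oe over Mock panels, at -1.12 and -1.79.

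NOTCH3, a receptor best known from vascular smooth muscle (ENSG00000074181.9, chromosome 19, 15159038 to 15200995, minus strand, GRCh38), varied most among the receptors. HSF2oe TGF-β libraries held 49.2 and 52.3 CPM and HSF2oe control libraries 38.9 and 38.8 CPM. Mock TGF-β libraries held 146 and 204 CPM and Mock control libraries 73.8 and 95 CPM. Every HSF2oe library was thus below every Mock library, with or without TGF-β, and within each transfection both TGF-β libraries were above both controls.

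NOTCH3 rose with TGF-β in Mock cells by 1.05 ± 0.15 on the log2 scale (± standard error throughout), or 2.07-fold (edgeR adjusted p = 0.000334). In HSF2oe cells the same contrast gave 0.38 ± 0.15 and did not pass (edgeR adjusted p = 0.161). It did pass in a fit of the compared groups alone (0.39, edgeR adjusted p = 0.0343) and with no filter on low counts (0.38, edgeR adjusted p = 0.0211). The fit with no filter gave a smaller standard error here, 0.12, and is less strict. HSF2oe cells were lower than Mock cells by a log2 fold change of -1.12 ± 0.15 without TGF-β and -1.79 ± 0.15 with it (edgeR adjusted p = 0.00092 and 2.19e-05). The 3 NOTCH3 calls held when any single library was left out and in each of the other settings tried. The fold depended on Mock TGF-β library 2, the highest of all: without it the rise in Mock cells was 0.79. No exonic base of NOTCH3 is shared with another gene of the annotation.

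NOTCH2 (ENSG00000134250.20, chromosome 1, 119911553 to 120100779, minus strand) and NOTCH1 (ENSG00000148400.13, chromosome 9, 136494433 to 136546048, minus strand) are widely expressed receptors. NOTCH2 had 845 and 648 CPM in HSF2oe TGF-β, 797 and 621 CPM in HSF2oe control, 806 and 819 CPM in Mock TGF-β and 610 and 637 CPM in Mock control. The Mock groups did not overlap and the HSF2oe groups did. In both HSF2oe groups library 1 was above library 2, and within each replicate number the TGF-β library was above its control. The log2 change with TGF-β was 0.38 ± 0.14 in Mock cells (95% interval 0.08 to 0.68), which missed the threshold (edgeR adjusted p = 0.0929), and 0.07 ± 0.14 in HSF2oe cells (interval -0.22 to 0.37). The Mock value did pass in a fit of the compared groups alone (0.38, edgeR adjusted p = 0.0169) and with DESeq2 (0.39, adjusted p = 0.044). It also passed with no filter on low counts (0.36, edgeR adjusted p = 0.00719) and with the replicate number as a block (0.38, edgeR adjusted p = 0.0102). The related genes NOTCH2NLR, NOTCH2NLA, NOTCH2NLB and NOTCH2NLC held 104, 9, 6 and 22 counts summed over the 8 libraries, against at least 12371 counts of NOTCH2 in each. Reads from stretches that NOTCH2 shares with these genes may have been lost to all of them, so the level of NOTCH2 is uncertain to that extent.

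NOTCH1 had 98.7 and 66.2 CPM in HSF2oe TGF-β, 109 and 86.3 CPM in HSF2oe control, 82.2 and 76.1 CPM in Mock TGF-β and 92.0 and 77.6 CPM in Mock control. Its groups overlapped in all 4 comparisons. Library 1 was above library 2 in each group, and within each replicate number the TGF-β library was below its control. The log2 changes lay between -0.24 and 0.20, each with a standard error of 0.16 or 0.17, and none passed. None passed with the replicate number as a block either. The widest 95% limits were -0.59 for TGF-β in HSF2oe cells and 0.56 for HSF2oe over Mock without TGF-β, so changes within those limits are not excluded.

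JAG1 (ENSG00000101384.12, chromosome 20, 10637684 to 10673999, minus strand) encodes the Jagged ligand that activates Notch on adjacent cells. It had 625 and 500 CPM in HSF2oe TGF-β against 322 and 282 CPM in HSF2oe control, and 680 and 606 CPM in Mock TGF-β against 391 and 364 CPM in Mock control. All 4 TGF-β libraries lay above all 4 control libraries. JAG1 rose by 0.90 ± 0.12 in HSF2oe cells and by 0.77 ± 0.12 in Mock cells, 1.86-fold and 1.7-fold (edgeR adjusted p = 0.000477 and 0.000881). Both calls held in every setting and with any library left out, at 0.73 to 1.05 in HSF2oe cells and 0.51 to 0.85 in Mock cells. HSF2oe over Mock was -0.32 ± 0.12 without TGF-β and -0.19 ± 0.12 with it, and neither passed (edgeR adjusted p = 0.106 and 0.29). The value without TGF-β did pass with no filter on low counts (edgeR adjusted p = 0.0305) and with the replicate number as a block (-0.33, edgeR adjusted p = 0.00557). A share of 3.29% of its exonic bases is covered by another annotated gene.

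DLL1, a Delta-like ligand gene (ENSG00000198719.9, chromosome 6, 170282206 to 170306565, minus strand), was low. HSF2oe TGF-β libraries had 1.18 and 1.32 CPM and HSF2oe control libraries 2.06 and 2.02 CPM. Mock TGF-β libraries had 1.5 and 2.26 CPM and Mock control libraries 3.41 and 2.89 CPM. In each of the 4 comparisons the groups did not overlap, with the TGF-β group below its control and the HSF2oe group below Mock. Its log2 changes were -0.72 ± 0.29 for TGF-β in Mock cells, -0.70 ± 0.30 for TGF-β in HSF2oe cells, -0.63 ± 0.27 for HSF2oe over Mock without TGF-β and -0.61 ± 0.32 with it. None passed (edgeR adjusted p = 0.128, 0.194, 0.15 and 0.191), and the counts behind them were 23 to 102 per library. Under library totals alone the Mock TGF-β change did pass (-0.98, edgeR adjusted p = 0.0208). Of its exonic bases, 9.69% are shared with FAM120B, and counting did not use strand.

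JAG2, the other Jagged ligand gene, had 1 and 8 counts in HSF2oe TGF-β, 1 and 5 counts in HSF2oe control, 2 and 2 counts in Mock TGF-β and 1 and 0 counts in Mock control. In the library at 0 a level of up to 0.0851 CPM (3 counts) cannot be told from 0, for counting error only. It failed the low-count filter, and no fold is given.

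Counting members whose groups did not overlap gives little: in Mock cells 8 of the 9 tested members had both TGF-β libraries on the same side of both controls, where 52.7% of all tested genes did, and in HSF2oe cells 5 of 9 did, where 49.8% of all genes did. HSF2oe and Mock were apart for 6 of 9 without TGF-β and for 4 of 9 with it, where 57.4% and 59.8% of all genes were apart.

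HES1, the best known Notch target and a transcriptional repressor (ENSG00000114315.4, chromosome 3, 194136148 to 194138732, plus strand), is the gene whose promoter above holds a match to each searched motif. It had 29.1 and 32.5 CPM in HSF2oe TGF-β against 15.9 and 17.0 CPM in HSF2oe control, and 24.1 and 27.7 CPM in Mock TGF-β against 14.6 and 13.4 CPM in Mock control. Its TGF-β libraries all lay above its control libraries. The rise was 0.90 ± 0.12 in HSF2oe cells and 0.89 ± 0.12 in Mock cells, 1.87-fold and 1.86-fold (edgeR adjusted p = 0.000316 and 0.000266). Both calls held in every setting and with any library left out. HSF2oe over Mock was 0.24 ± 0.12 without TGF-β and the same with it, both short of the threshold (edgeR adjusted p = 0.229 and 0.161). The value with TGF-β passed under library totals alone (0.44, edgeR adjusted p = 0.0162).

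HEY1, a related repressor (ENSG00000164683.18, chromosome 8, 79762371 to 79767857, minus strand), was lower than HES1. HSF2oe TGF-β libraries had 4.23 and 4.6 CPM and HSF2oe control libraries 2.7 and 3.01 CPM. Mock TGF-β libraries had 4.17 and 5.36 CPM and Mock control libraries 2.06 and 2.16 CPM. As with HES1, every TGF-β library was above every control library. HEY1 rose by 1.18 ± 0.23 in Mock cells, 2.27-fold (edgeR adjusted p = 0.00323), a call lost without Mock TGF-β library 2 (0.98, edgeR adjusted p = 0.0552). In HSF2oe cells the change was 0.63 ± 0.21 and did not pass (edgeR adjusted p = 0.101). HSF2oe over Mock was 0.43 ± 0.23 without TGF-β and -0.12 ± 0.22 with it, and neither passed (edgeR adjusted p = 0.237 and 0.743).

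HEY2 (ENSG00000135547.9, chromosome 6, 125747664 to 125761269, plus strand), another repressor of this family, was set apart by transfection more than by treatment. It had 1.28 and 2.47 CPM in HSF2oe TGF-β and 0.899 and 2.14 CPM in HSF2oe control, against 3.52 and 5.17 CPM in Mock TGF-β and 3.33 and 3.09 CPM in Mock control. All HSF2oe libraries were below all Mock libraries. With TGF-β, HSF2oe cells were lower by a log2 fold change of -1.25 ± 0.39 (edgeR adjusted p = 0.0345). This call was lost without Mock TGF-β library 2 (-0.94, edgeR adjusted p = 0.249) and without HSF2oe TGF-β library 1 (-0.81, edgeR adjusted p = 0.26). Without TGF-β the value was -1.07 ± 0.38, short of the threshold (edgeR adjusted p = 0.0857). It passed there without HSF2oe control library 2 (-1.82, edgeR adjusted p = 0.0241), with no filter on low counts (-1.07, edgeR adjusted p = 0.00221) and in a fit of the compared groups alone (-1.06, edgeR adjusted p = 0.042), and was -0.58 without HSF2oe control library 1. The replicate number as a block also brought the value without TGF-β past the threshold (-1.13, edgeR adjusted p = 0.00974). The change with TGF-β was 0.27 ± 0.41 in HSF2oe cells and 0.45 ± 0.36 in Mock cells, and neither passed.

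NRARP encodes an ankyrin repeat protein that dampens Notch signalling and is itself a Notch target (ENSG00000198435.4, chromosome 9, 137299631 to 137302271, minus strand). It had 6 and 12 counts in HSF2oe TGF-β, 11 and 6 counts in HSF2oe control, 5 and 6 counts in Mock TGF-β and 5 and 7 counts in Mock control. Its log2 changes lay between 0.12 and 0.66 with standard errors of 0.70 to 0.79, and no comparison passed. The data cannot tell a change of this gene in either direction at these counts.

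Whether TGF-β acted differently in HSF2oe and in Mock cells was tested as the difference of both TGF-β effects. NOTCH3 had the largest such difference among the members relative to its error, -0.67 ± 0.21 (95% interval -1.12 to -0.22), with an unadjusted p of 0.00702 and an edgeR adjusted p of 0.716. HEY1 had -0.55 ± 0.31 (interval -1.23 to 0.12), JAG1 0.13 ± 0.17 (interval -0.24 to 0.50) and HES1 0.01 ± 0.17 (interval -0.36 to 0.37). With edgeR, 0 of the 9 members passed, and 1 of them, NOTCH3, had an unadjusted p under 0.05. Of all 16008 genes 0 passed (0%), while 977 had an unadjusted p under 0.05. DESeq2 called 23 genes and limma on the deposited log2 CPM called 0, with no Notch member among either. NOTCH3 did pass with no filter on low counts (-0.65, edgeR adjusted p = 0.0332), where 83 genes were called, and with the replicate number as a block (-0.67, edgeR adjusted p = 0.0375), where 78 were. For NOTCH3 the call of a difference between the transfections thus depends on the setting. HEY1 passed for this difference in no setting, so that it passed in Mock cells and not in HSF2oe cells is not shown to be a difference between them.

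To compare genes with each other, CPM were divided by exonic length in kilobases. JAG1 and NOTCH2 were the highest of the 10 in every group, NRARP and JAG2 the lowest. In HSF2oe TGF-β the order of mean CPM per kb was JAG1 60.5 ± 9.51, NOTCH2 37.5 ± 7.0, HES1 14.9 ± 1.17, NOTCH1 6.58 ± 1.83 and NOTCH3 5.39 ± 0.237 (SD, n = 2). The libraries of NOTCH1 and NOTCH3 overlapped there. In HSF2oe control the order was NOTCH2 35.6 ± 6.24, JAG1 32.5 ± 3.01, HES1 7.99 ± 0.398, NOTCH1 7.78 ± 1.27 and NOTCH3 4.13 ± 0.00277, and neither NOTCH2 and JAG1 nor HES1 and NOTCH1 were apart.

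In Mock TGF-β the order was JAG1 69.2 ± 5.68, NOTCH2 40.8 ± 0.485, NOTCH3 18.6 ± 4.30, HES1 12.6 ± 1.24 and NOTCH1 6.32 ± 0.348, with no overlap between neighbours. In Mock control it was JAG1 40.6 ± 2.02, NOTCH2 31.3 ± 0.944, NOTCH3 8.97 ± 1.59, HES1 6.79 ± 0.407 and NOTCH1 6.77 ± 0.813, where HES1 and NOTCH1 overlapped. NOTCH3 thus stood above NOTCH1 in both Mock groups. Its mean lay below that of NOTCH1 in both HSF2oe groups, with libraries apart in the control group and overlapping in the TGF-β group. HEY1, HEY2 and DLL1 followed at 0.31 to 1.92 CPM per kb, and NRARP and JAG2 stayed at or below 0.194.

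**Figure D3:**
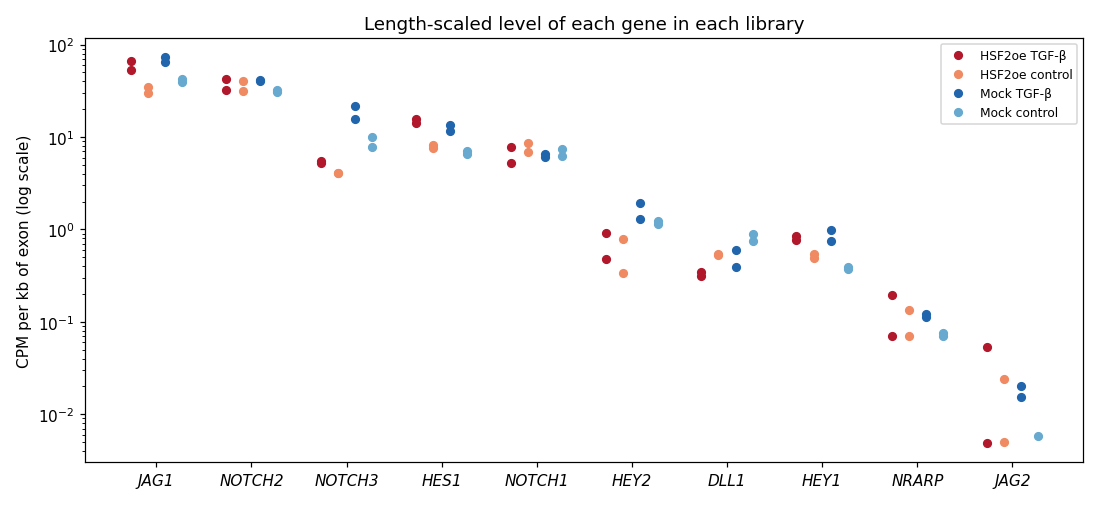
CPM per kb of exon (log axis) for each gene in each of the 8 libraries, coloured by group and ordered by the mean in Mock control; the JAG2 library at 0 counts is not drawn. JAG1 and NOTCH2 lie at 30.3 to 73.2 CPM per kb in all libraries, while NOTCH3 spans 4.13 to 21.6.

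The 3 genes whose log2 CPM followed NOTCH3 most closely over the 8 libraries were IARS1, SIDT2 and ADAMTS2, with a Pearson r of 0.9971, 0.9968 and 0.9962. For JAG1 they were SND1, KLHL29 and CRIM1 (0.9863, 0.9813 and 0.9807), and for HEY1 they were SLC45A3, ENC1 and YIPF6 (0.9845, 0.984 and 0.9794). These are the highest of 11676 genes compared with each member. All libraries share the 4-group design, so such values are a description of these libraries.

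The rest of the pathway was followed in a list of 59 further genes, 54 of which could be tested. DLL4, DLK1, HES2, HES5 and HEYL were too low, at 0.187 CPM or less in every library. TGF-β raised 6 of the 54 and lowered 5 in Mock cells, and raised 2 and lowered 3 in HSF2oe cells. HSF2oe over Mock was higher for 2 and lower for 5 without TGF-β, and higher for 1 and lower for 8 with it. The shares of the list called in these 4 comparisons in turn were 20.4%, 9.26%, 13% and 16.7%, beside 13.8%, 8.26%, 12.1% and 21.5% of all genes. The last 3 are near or below the background and say nothing particular about the list. The first depends on single Mock libraries, as given below. The list was also chosen with earlier results of these data known, so that share is a description only. The medians of the list, 0.06, -0.01, -0.11 and -0.11 in that order, stood beside 0 or -0.01 for all genes. Under library totals alone the Mock TGF-β split was 1 higher and 11 lower, the HSF2oe TGF-β split 1 and 9, and the HSF2oe over Mock splits 5 and 2 without TGF-β and 12 and 2 with it.

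**Figure D4:**
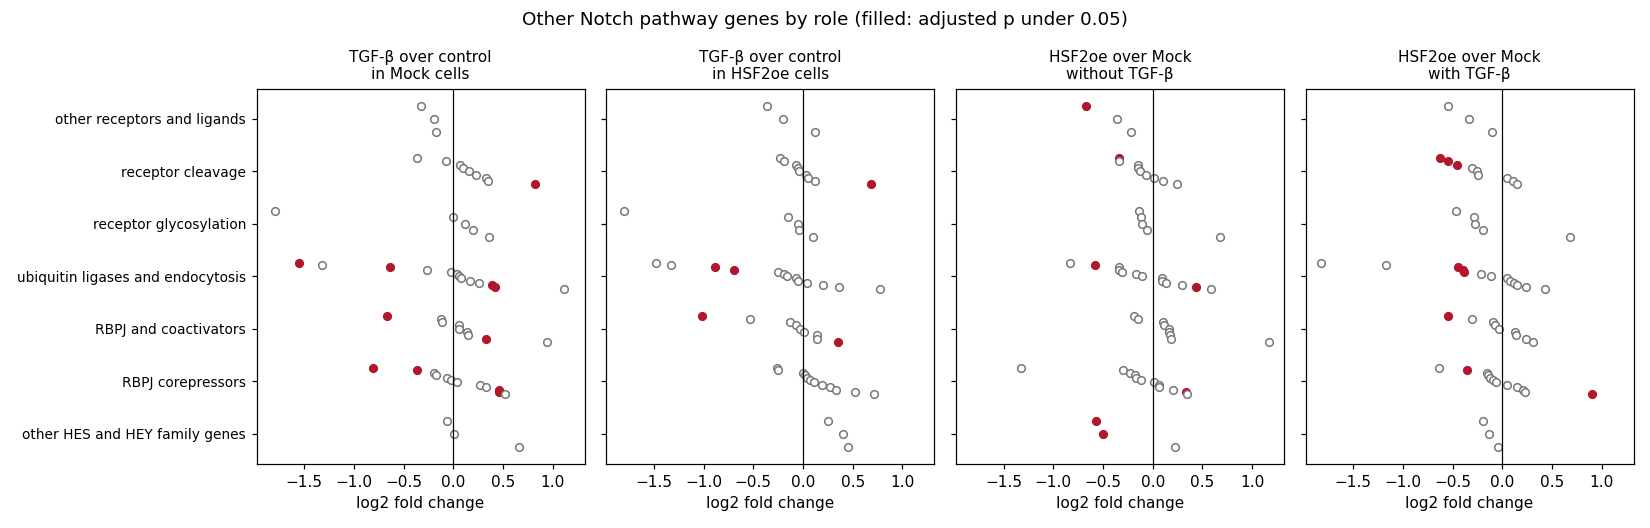
Log2 fold change (x axis) of the 54 tested genes of the wider pathway list, by role (rows), in the 4 comparisons; filled points had an adjusted p under 0.05. FURIN is the filled point to the right in the cleavage row of both TGF-β panels, at 0.82 in Mock cells and 0.68 in HSF2oe cells.

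The RNA of a few receptor processing genes moved, while receptor cleavage itself was not measured. FURIN, the protease that makes the first cut in the Notch receptor during its passage to the cell surface, had 320 and 316 CPM in HSF2oe TGF-β against 199 and 197 CPM in HSF2oe control, and 287 and 302 CPM in Mock TGF-β against 163 and 172 CPM in Mock control. FURIN rose with TGF-β by 0.68 ± 0.09 in HSF2oe cells and 0.82 ± 0.09 in Mock cells (edgeR adjusted p = 0.000378 and 6.03e-05). ADAM10, the protease that cuts the ligand-bound receptor, had 140 and 129 CPM in HSF2oe TGF-β against 189 and 204 CPM in Mock TGF-β, a log2 difference of -0.55 ± 0.10 (edgeR adjusted p = 0.00184). The γ-secretase subunit genes NCSTN and APH1B were lower in the same comparison, by -0.46 ± 0.11 and -0.63 ± 0.13 (edgeR adjusted p = 0.0103 and 0.00412). Without TGF-β ADAM10 was also lower in HSF2oe than in Mock cells, by -0.34 ± 0.10 (edgeR adjusted p = 0.0384). That call was lost without any of the compared libraries, under library totals alone and in a fit of the compared groups alone. The calls of FURIN and of ADAM10 with TGF-β held in all settings. APH1B was lost without Mock TGF-β library 2 (edgeR adjusted p = 0.0664). NCSTN was lost without Mock TGF-β library 2, without HSF2oe TGF-β library 2 and under library totals alone (edgeR adjusted p = 0.0703, 0.087 and 0.0775).

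Of the ubiquitin ligase genes, NEURL1B, which encodes a ligase of the Neuralized type that acts on Notch ligands, had 5.2 and 4.65 CPM in HSF2oe TGF-β against 8.22 and 10.1 CPM in HSF2oe control, and 4.82 and 4.53 CPM in Mock TGF-β against 14.4 and 13.0 CPM in Mock control. NEURL1B fell with TGF-β in both transfections (-0.89 ± 0.16 in HSF2oe and -1.55 ± 0.17 in Mock, edgeR adjusted p = 0.00379 and 5.44e-05). DTX3L, a Deltex-family ligase gene, also fell (-0.69 ± 0.10 in HSF2oe and -0.64 ± 0.10 in Mock, edgeR adjusted p = 0.00078 and 0.00091). The calls of both genes held in all settings. Other annotated genes cover 5.96% of the exonic bases of NEURL1B, 2.41% of those of DTX3L and 3.87% of those of ITCH. ITCH, whose ligase acts on Notch receptors, rose by 0.39 ± 0.09 in Mock cells (edgeR adjusted p = 0.00956), a call lost under library totals alone (0.13) and without any 1 of the 4 Mock libraries (edgeR adjusted p of 0.0538 to 0.0854).

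In the nucleus, RBPJ itself had 52.3 and 50.2 CPM in HSF2oe TGF-β, 46.3 and 46.8 CPM in HSF2oe control, 47.8 and 45.1 CPM in Mock TGF-β and 40.8 and 42.7 CPM in Mock control. RBPJ passed in no comparison, with log2 changes of 0.14 to 0.16 and standard errors of 0.09; it was looked up after its values were seen. The histone acetyltransferase gene KAT2B fell with TGF-β by -1.02 ± 0.15 in HSF2oe cells and -0.67 ± 0.15 in Mock cells (edgeR adjusted p = 0.000724 and 0.00874), the second lost without Mock control library 1 (edgeR adjusted p = 0.0637). TLE1, a Groucho corepressor that HES proteins recruit, had 33.0 and 28.4 CPM in HSF2oe TGF-β against 18 and 15.1 CPM in Mock TGF-β, higher by 0.90 ± 0.13 (edgeR adjusted p = 0.000413). TLE1 fell with TGF-β in Mock cells (-0.81 ± 0.13, edgeR adjusted p = 0.000721), and both TLE1 calls held in all settings.

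Without TGF-β, the HES-family genes HES4 and HES6 were lower in HSF2oe than in Mock cells, by -0.50 ± 0.14 and -0.57 ± 0.15 (edgeR adjusted p = 0.0338 and 0.0303), as was DLK2, a non-canonical ligand gene, by -0.67 ± 0.17 (edgeR adjusted p = 0.0251). All 7 list calls of this comparison depend on single libraries. The count was 0 without Mock control library 1, 0 without Mock control library 2, 0 without HSF2oe control library 1 and 3 without HSF2oe control library 2. For the other comparisons the list counts that moved by more than 1.5 times were those of TGF-β in Mock cells, 4, 6, 7 and 7 in place of 11 without Mock control 1, Mock control 2, Mock TGF-β 1 and Mock TGF-β 2, and of HSF2oe over Mock with TGF-β, 3 and 5 in place of 9 without Mock TGF-β 2 and HSF2oe TGF-β 1.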

How the data were processed

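The authors deposited a table of whole read-pair counts per gene, made with featureCounts 2.0.1 against GENCODE release 38 without a strand option, per the file headers, although the labels name a stranded kit. The submitters' processing notes name GRCh38, STAR 2.7.9a, Subread 2.0.1 and edgeR 3.34.1. A second table that the authors deposited holds log2 CPM of 13169 genes, 8 of the 10 members among them (not JAG2 and NRARP), used as an alternative.

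Here counts were fitted with edgeR 4.0.16 in R 4.3.3: filterByExpr (minimum count 10) kept 16008 genes, TMM factors were 0.857 to 1.11, and all 8 libraries entered 1 quasi-likelihood fit of the 4 group means, so groups share an estimate of the spread (common coefficient of variation 9.91%). TMM factors were lower in TGF-β libraries than in their controls. Tests were 2-sided with Benjamini-Hochberg adjustment. Each standard error was taken as the size of the log2 change divided by the square root of F, which can understate counting error at low counts. The chi-square per degree of freedom between the libraries of a group was 12.5 to 26.8, so none was a copy of another. The fit was tested on simulated counts that had the same spread for all genes, so that run does not cover genes with a wider spread. Alternatives were RLE scaling or library totals, no or a stricter filter (minimum count 30), DESeq2 1.42.0, limma 3.58.1 on the deposited log2 CPM, only the compared groups, a replicate block, and each library left out. With no filter, standard errors of the receptor genes, JAG1 and HEY2 were smaller and p-values far smaller. For NOTCH3 in HSF2oe over Mock with TGF-β the unadjusted edgeR p was 2.39e-51, against 2.19e-08 in the main fit. A pass with no filter alone is therefore weak.

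The members and lists were chosen with earlier results of these data known. Named genes are all members, HSF2, per role and comparison up to 3 list genes past the threshold with the smallest p (a selection of them is printed), and the 3 closest genes to NOTCH3, JAG1 and HEY1. Promoter letters come from RefSeq (GRCh38.p14).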

Additional observations from a re-analysis of the deposited data

How the results depend on the processing

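The 9 calls of Notch members kept their direction in all 16 refits, and all held except that of HEY1 (TGF-β in Mock cells) and that of HEY2 (HSF2oe over Mock with TGF-β), whose losses stand in the text. Over 694 refits of 45 member values, 641 kept side and direction, 18 newly passed, 3 no longer passed and 32 changed sign, none of these a called value. Groups of 2 libraries and counts of 109 or fewer for DLL1 and HEY2 limit what can be seen.

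The main fit did not pair libraries by replicate number. Over the tested genes, deviations from the group means correlated weakly between groups, by 0.05 to 0.163, and always positively. Single genes can differ from this: NOTCH1 was higher in library 1 than in library 2 of every group. Whether libraries of the same replicate number share an effect was not tested further than by the block. With the replicate number as a block the calls over all genes were 3350 for TGF-β in Mock cells, 2366 for TGF-β in HSF2oe cells, 3614 for HSF2oe over Mock without TGF-β, 4900 with it and 78 for the difference of TGF-β effects. The members called under the block were 5, 4, 3, 2 and 1 in that order, and the list genes called were 15, 13, 13, 14 and 0. For TGF-β in HSF2oe cells the block brought NOTCH3 (0.38, edgeR adjusted p = 0.0132) and HEY1 (0.63, edgeR adjusted p = 0.0476) past the threshold. It did so for NOTCH2 with TGF-β in Mock cells (0.38, edgeR adjusted p = 0.0102). For HSF2oe over Mock without TGF-β it did so for JAG1 and HEY2 (-0.33 and -1.13, edgeR adjusted p = 0.00557 and 0.00974).

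Other counts that moved by over 1.5 times were as follows. Under library totals alone 4493 and 2045 genes were called for TGF-β in Mock and HSF2oe cells, beside 2212 and 1323, and 10 and 14 list genes for TGF-β in HSF2oe cells and HSF2oe over Mock with TGF-β, beside 5 and 9. With no low-count filter 9 list genes were called for TGF-β in HSF2oe cells, 3 members for HSF2oe over Mock without TGF-β, and 83 genes and 1 member, NOTCH3, for the difference of TGF-β effects. DESeq2 called 23 genes for that difference, and the compared groups alone gave 2 members for HSF2oe over Mock without TGF-β. The cause was not tested.

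Leaving out single libraries gave 1143 to 2266 genes for TGF-β in Mock cells, 673 to 1334 for TGF-β in HSF2oe cells, 368 to 1993 for HSF2oe over Mock without TGF-β and 1509 to 3331 with it. Members called ranged from 1 to 2 in both HSF2oe over Mock comparisons. List genes ranged from 4 to 11, 4 to 6, 0 to 8 and 3 to 9 in the 4 comparisons in turn.

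Sign changes concerned uncalled values. Under library totals alone NOTCH2 was -0.09 for TGF-β in HSF2oe cells and 0.07 for HSF2oe over Mock with TGF-β, and HEY1 was 0.07 for HSF2oe over Mock with TGF-β. With libraries left out, NOTCH1 ranged from -0.22 to 0.02 for TGF-β in Mock cells and from -0.55 to 0.02 in HSF2oe cells, NOTCH2 from -0.12 to 0.27, HEY2 from -0.25 to 1.02 and NRARP from -0.52 to 0.93 in HSF2oe cells. For HSF2oe over Mock without TGF-β, NOTCH2 ranged from -0.01 to 0.36 and NRARP from -0.06 to 0.86. With TGF-β, NOTCH1 ranged from -0.24 to 0.33, NOTCH2 from -0.31 to 0.06, HEY1 from -0.28 to 0.08 and NRARP from -0.71 to 0.74. For the difference of TGF-β effects the ranges were -0.44 to 0.12 for NOTCH1, -0.02 to 0.29 for JAG1, -0.23 to 0.36 for DLL1, -0.08 to 0.12 for HES1, -0.70 to 0.58 for HEY2 and -1.17 to 0.27 for NRARP.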
